A study of Mus musculus with 2 samples.

Results

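Colitis-associated colon tumors of mice contained epithelial cells with high mRNA levels of keratin 20 (Krt20), an intermediate filament protein of the upper crypt and surface epithelium. These Krt20-high cells were taken from the cells that the study annotated as epithelial. A cell was a member when it held at least 3 unique molecular identifiers (UMIs, the counted mRNA molecules) of Krt20, 0 UMIs of the stem cell receptor gene Lgr5, 0 UMIs of the mitosis gene Top2a, and less than 25% of its UMIs in mitochondrially encoded (mt-) genes. The members were thus chosen by their measured UMIs of Krt20, Lgr5, Top2a and mt- genes. By this rule 1507 of 21479 epithelial cells were members, out of 38883 cells in all. The values of these genes are therefore no findings here.

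The study asked what the loss of the microRNA gene Mir34a in myeloid cells does to such tumors and their surroundings. There were 2 libraries, each made from 6–8 tumors of 3 mice, which were combined. Dead cells were removed before loading. The libraries are labelled Mir34a_F/F, mice with both Mir34a alleles floxed, and Mir34a_Mye_KO, floxed mice that also carried LysM-Cre, a recombinase driven by the lysozyme 2 locus in macrophages, neutrophils and their precursors. The floxed alleles are thus present in both libraries, the Cre is not designed to act in epithelial cells, and the cells cannot be assigned to single mice.

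All mice were 6–10 weeks old when they received the carcinogen azoxymethane at 10 mg/kg, which was given before the first and again before the second of 3 colitis periods. Colitis was induced with dextran sodium sulfate in the drinking water for 5 days, at 2.5% in the first periods, each followed by 16 days of plain water, and at 2% in the third period. Tumors were collected on day 110. With 1 library of pooled mice per genotype, cells are not replicates of a genotype, so all differences are given as sizes without a p-value, and each library is named by its label.

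As background, the colonic crypt holds Wnt-driven stem cells at its base, dividing progenitors above them, and non-dividing cells at the top and on the surface. The surface cells, called colonocytes, carry a brush border of microvilli, absorb salt and water through transporters such as Slc26a3 and the apical carbonic anhydrase Car4, and make mucins, peroxide and antimicrobial proteins at the border to the gut lumen. In tumors that start from activated Wnt signalling, part of the cells can still take on features of these upper-crypt cells. Interferons, released by infected or inflamed tissue, switch on a further set of antiviral genes in epithelium through transcription factors that the interferon receptors activate.

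The library labelled Mir34a_F/F held 919 members among 11614 epithelial cells, and the library labelled Mir34a_Mye_KO held 588 among 9865. The comparison cells were the epithelial cells of the same library with 0 UMIs of Krt20, Lgr5 and Top2a and the same limit on mt- genes, 3150 and 2286 cells. Members were deeper than comparison cells, with a median of 9962 against 3844 UMIs in Mir34a_F/F and 14902.5 against 2070 in Mir34a_Mye_KO, since a threshold in UMIs favours deep cells. The mt- genes took a median of 11.2% and 16.9% of the members' UMIs. The libraries shared 96 cell barcodes, which 7 and 4 members carried, and 1 barcode was a member in both. The table also holds 6 added features for the Cre and the Mir34a locus. The features crenls, mir34ahairpin, mir34amature and mir34astemloop had 0 UMIs in all cells. The feature crenlslyz2 had 537 UMIs in Mir34a_F/F and 233 in Mir34a_Mye_KO, and mir34apri had 359 and 737. In macrophages they had 451 and 172, and 133 and 462. The macrophage values are summed UMIs of 2208 and 2601 cells with medians of 7251.5 and 11227 UMIs, and no rate was taken. Read by their names, both sums run against the genotype labels. By label, Mir34a_Mye_KO held more macrophages, and the study's staining showed more macrophages in tumors of mice without myeloid Mir34a. The sequence that the features cover is not given in the sources used here. Whether they measure the Cre and the deleted allele was thus not tested, and every direction between the libraries is given by label. The authors' annotation of cells names the libraries Flox and LYS_CRE.

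Members made up 7.91% of the epithelial cells of Mir34a_F/F (95% exact binomial interval 7.43 to 8.42) and 5.96% of those of Mir34a_Mye_KO (5.50 to 6.45). These intervals, like all intervals below, cover counting error only and not the spread between mice. The order of the libraries depended on the limit on mt- genes and on depth. Of the annotated epithelial cells, 20.04% in Mir34a_F/F and 38.8% in Mir34a_Mye_KO had 25% or more of their UMIs in mt- genes, although the study's methods give less than 25% as a filter. Counted among cells under 25% only, the shares were 9.90% and 9.74%. With no limit on mt- genes the order turned, to 8.71% and 10.1%. Among the 8446 and 7493 epithelial cells of 3000 UMIs or more, each thinned to 3000, the shares were 4.71% and 3.02%. With the Krt20 condition alone the shares were 13.04% and 14.69%, but 5.62% and 4.68% after thinning. The part of mt- content and depth in the difference was not tested.

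**Figure D1:**
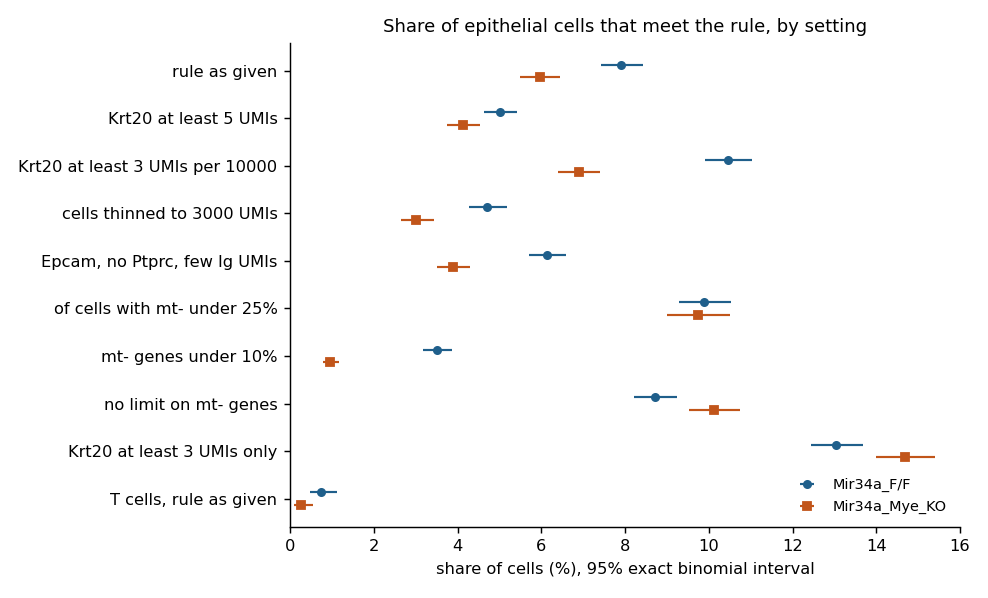
Share of epithelial cells that meet the rule (x axis, in percent) under the settings named on the y axis, with 95% exact binomial intervals, for Mir34a_F/F (blue circles) and Mir34a_Mye_KO (orange squares). Mir34a_F/F is higher with the rule as given (7.91% against 5.96%) and lower without a limit on mt- genes (8.71% against 10.1%), and the bottom line gives annotated T cells that meet the same conditions (0.745% and 0.264%).

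Free mRNA in the droplets can add UMIs of abundant epithelial genes to cells of every type. At least 1 Krt20 UMI was found in 33.3% and 33.4% of epithelial cells, and in 11.9% and 13.7% of annotated T cells, which should lack it and had a median depth of 3548 and 8043 UMIs. The conditions of the rule were met by 23 of 3088 T cells (0.745%) and 7 of 2649 (0.264%). T cells were less deep than members, so these shares do not give the background at the members' depth. After thinning to 3000 UMIs, 10 of 1901 and 0 of 2369 T cells held at least 3 Krt20 UMIs. Among epithelial cells 475 of 8446 and 351 of 7493 did. The source of the Krt20 UMIs in T cells was not tested. The mean level of Krt20 over all T cells was 0.41 and 0.23 UMIs per 10000, against 1.45 and 1.25 over all epithelial cells.

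Levels below are the mean over cells of a gene's UMIs per 10000 UMIs of the cell, and differences are log2 ratios of such levels. Of the other markers given for these cells, Clca4a, a member of the calcium-activated chloride channel regulator family, stood at 3.30 in members against 0.289 in comparison cells of Mir34a_F/F, and at 2.40 against 0.206 in Mir34a_Mye_KO. It was found in 45.5% and 44.6% of members and in 5.18% and 4.57% of T cells, or after thinning to 3000 UMIs in 28.0% and 24.4% against 3.79% and 1.86%. Clca4a was thus found more often in members than in T cells, although the majority of members held no UMI of it. Car4 was found in 4.46% and 3.40% of members, and its level was 0.281 against 0.0484 and 0.162 against 0.0349. Slc26a3, the chloride-bicarbonate exchanger of the mature colonocyte, was found in 2.503% and 2.211% of members and in 0.603% and 0.6999% of comparison cells, and its level was 0.0516 against 0.0133 and 0.0410 against 0.0236. Slc26a3 and Car4, which define mature colonocytes, thus had no UMI in most members, and the log2 ratio of Slc26a3 in Mir34a_Mye_KO (0.80, 95% interval −0.39 to 2.09) was within counting error. The name "Krt20-high" is used below for that reason, with no claim that these were mature absorptive colonocytes.

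The threshold divided a gradual change, and cells with more Krt20 UMIs were also deeper. Median depth was 3844 and 2070 UMIs in cells without Krt20, 6079 and 9198 with exactly 2 Krt20 UMIs, and 6360 and 11485.5 with exactly 3. The part of depth in the change was not tested. Cells with exactly 3 Krt20 UMIs (195 and 112 cells), just inside, had a Clca4b level of 17.5 and 14.2, and those with exactly 2 UMIs (338 and 167 cells), just outside, had 13.4 and 10.4. Lypd8, a surface protein that binds flagella of gut bacteria, was at 72.2 and 51.3 just inside and at 59.0 and 42.0 just outside. The acute-phase gene Saa1 was at 35.3 and 26.9 just inside and at 33.8 and 20.3 just outside. Axin2, a feedback gene of the Wnt pathway, was at 0.35 and 0.39 just inside and at 0.52 and 0.66 just outside, with 1.82 and 1.57 in cells without Krt20.

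**Figure D2:**
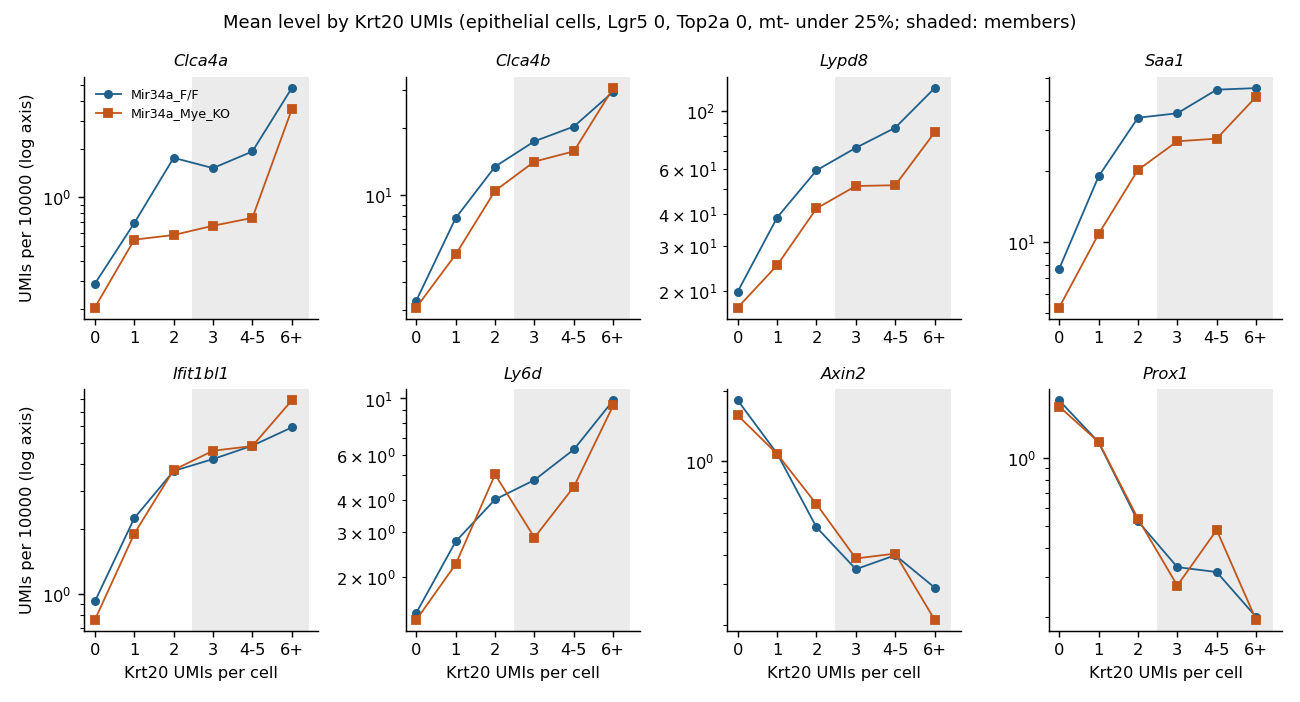
Mean level (y axis, UMIs per 10000, log scale) of 8 genes against the Krt20 UMIs of a cell (x axis) among epithelial cells with 0 Lgr5 and 0 Top2a UMIs and less than 25% mt- UMIs, for Mir34a_F/F (blue circles) and Mir34a_Mye_KO (orange squares). The shaded classes are the members, and the change from 0 UMIs (Clca4b 3.31 and 3.08) to 6 or more (29.4 and 30.5) has no step at the threshold. The classes also differ in depth, with medians of 3844 and 2070 UMIs at 0 and of 13605 and 16847 at 6 or more.

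Of 8944 genes tested (a mean level of at least 0.1 over members and comparison cells of both libraries), 407 (4.55%) were at least 2-fold higher in members in both libraries and 1063 (11.9%) were at least 2-fold lower in both. The rule itself set this contrast, so these counts describe the chosen cells and nothing is tested with them. The mean of the filter includes the members, so a gene can pass it through the group where it is high. The median log2 ratio over all genes tested was −0.32 in Mir34a_F/F and −0.30 in Mir34a_Mye_KO. Since members were deeper, each ratio was also taken against comparison cells weighted to the members' depths, which gave 442 higher and 897 lower genes. At a mean level of at least 0.5 the balance turned, to 250 higher and 176 lower.

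**Figure D3:**
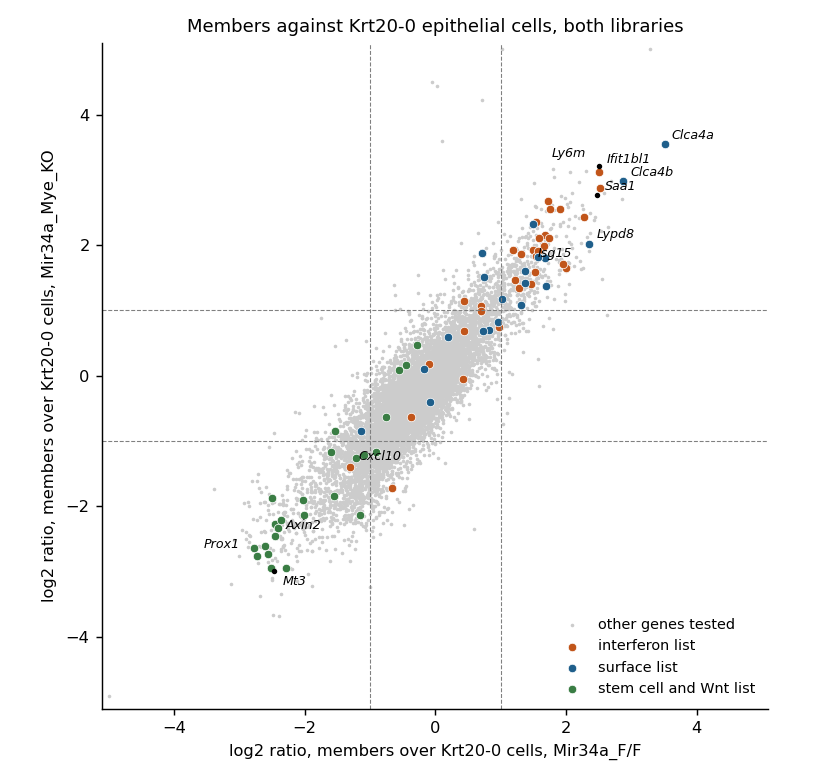
Log2 ratio of members over Krt20-0 epithelial cells in Mir34a_F/F (x axis) and in Mir34a_Mye_KO (y axis) for the 8944 genes tested, with the interferon list in orange, the list of keratins and surface proteins in blue and the stem cell and Wnt list in green. Dashed lines mark 2-fold, and points beyond 5 are drawn at the edge. Clca4a (3.51 and 3.54) lies at the upper right and Prox1 (−2.78 and −2.63) at the lower left.

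Surface proteins were among the genes with the highest ratios in members. Clca4a had a log2 ratio of 3.51 (95% interval 3.29 to 3.74) in Mir34a_F/F and 3.54 (3.22 to 3.88) in Mir34a_Mye_KO. Its neighbour Clca4b was at 24.4 in members against 3.31 in comparison cells of Mir34a_F/F and at 24.3 against 3.08 in Mir34a_Mye_KO, and was found in 93.7% and 94.6% of members. Unlike Clca4a, Clca4b was thus found in nearly every member. In T cells Clca4b was found in 33.5% and 41.1%, at levels of 1.42 and 0.97. Of the 24 genes in the list of keratins and surface proteins, 20 were tested, 11 were at least 2-fold higher in both libraries and 0 were lower, with medians of 1.17 and 1.40. Lypd8 had the most UMIs of them, at 102 against 19.97 and 70.3 against 17.3. It had UMIs in 100% of members but also in 89.5% and 94.98% of T cells at levels of 8.82 and 5.60, so that its share of cells does not set members apart. Muc13 and Muc3, transmembrane mucins of the cell surface, had log2 ratios of 1.38 and 1.43, and 1.58 and 1.82. Krt8 and Krt19, the other simple-epithelium keratins, stayed below 2-fold (0.95 and 0.82, and 0.83 and 0.70), and Krt18, the partner of Krt8, was at −0.18 and 0.10.

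Several of the leading genes lie next to each other in gene families. The families were chosen after their values were seen, and their copies are similar enough that UMIs may be misassigned between them. The Clca genes span chr3:144729677-145099443 (mm10), and 5 of the 6 tested, Clca3a1, Clca3a2, Clca3b, Clca4a and Clca4b, were at least 2-fold higher in both libraries. Clca3b was at 14.98 against 3.38 and at 17.5 against 3.22. The sixth, Clca1, which goblet cells secrete, had log2 ratios of 0.71 and 1.89. In the Ly6 family on chromosome 15, whose genes encode small lipid-anchored surface proteins, Ly6a, Ly6c1, Ly6d and Ly6g were higher among 6 tested. Ly6g, best known as a surface antigen of neutrophils, was at 3.86 against 0.749 and at 2.25 against 0.492, while the neutrophil gene Retnlg was lower in members (−1.45 and −1.97). Against depth-weighted comparison cells Ly6g had log2 ratios of 2.67 and 2.56, and the list of neutrophil genes had medians of −0.23 and 0.26. Ly6e, which most cells express, was at −0.10 and −0.33, and Psca was lower (−5.33 and −4.91), with a UMI in 1.46% and 0.875% of comparison cells. Ly6m, which was not matched to the annotation used for positions, was at 6.71 against 1.18 and at 4.51 against 0.486.

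The remaining leading genes were of mixed function. Csta1, a cysteine protease inhibitor, had log2 ratios of 2.69 and 2.99, and the serine protease gene Prss30 2.20 and 2.96. Tmem37, related to calcium channel subunits, had 2.26 and 2.56, and Smpdl3a, a phosphodiesterase related to acid sphingomyelinase, 2.32 and 2.12. Chgb, the enteroendocrine granule protein chromogranin B, was second by the size of its ratio (3.29 and 7.07) but was found in 8 members of each library. In Mir34a_F/F a single member held 132 of its 139 UMIs. Without the members of 50 or more hemoglobin or enteroendocrine UMIs its ratio was −0.81 and −1.54, so it describes a few cells and not the members at large.

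Brush border genes were higher as a group. Of 18 tested, 9 were at least 2-fold higher in both libraries and 0 were lower, with medians of 0.89 and 1.39, or 1.004 and 0.949 against depth-weighted comparison cells. Cdhr5 and Cdhr2, the protocadherins that link neighbouring microvilli, were at 8.96 against 2.58 and 7.80 against 1.55, and at 2.70 against 0.672 and 2.05 against 0.468. Their partner Anks4b had log2 ratios of 1.04 and 1.59, and the actin-bundling genes Eps8 and Pls1 had 1.37 and 1.503, and 1.38 and 1.35. Villin (Vil1), the classical marker of the brush border, stayed below 2-fold in Mir34a_F/F (0.68 and 1.04), as did ezrin (Ezr, 0.27 and 0.50). Ceacam20, a microvillus glycoprotein, showed 1.53 and 2.60.

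Transport genes of the colonocyte did not move as a group. Of 20 tested, 3 were higher and 3 were lower, with medians of 0.18 and 0.26, or 0.17 and −0.01 against depth-weighted comparison cells. The higher ones were Car4 (2.54 and 2.22, but −0.61 in Mir34a_Mye_KO among cells with less than 10% mt- UMIs), Scnn1a, the alpha subunit of the epithelial sodium channel (1.25 and 1.57), and the efflux pump Abcg2 (1.998 and 1.602). Car4, a marker given for these cells, passed the level filter through the members, with levels below 0.1 in comparison cells of both libraries. The lower ones were the sodium-proton exchanger Slc9a3 (−2.01 and −2.39), the chloride channel Cftr (−1.59 and −1.51) and the peptide hormone gene Guca2b (−1.01 and −1.19). Aqp8, the water channel of the surface colonocyte, had UMIs in 1.96% and 1.36% of members. Junction genes were mostly above 0 (16 of 19 in both libraries) but 0 of them reached 2-fold in both, with medians of 0.43 and 0.74. Against depth-weighted comparison cells the junction medians were 0.51 and 0.40. Claudin 2 (Cldn2), a pore-forming claudin of the crypt base, was lower (−2.12 and −2.83).

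**Figure D4:**
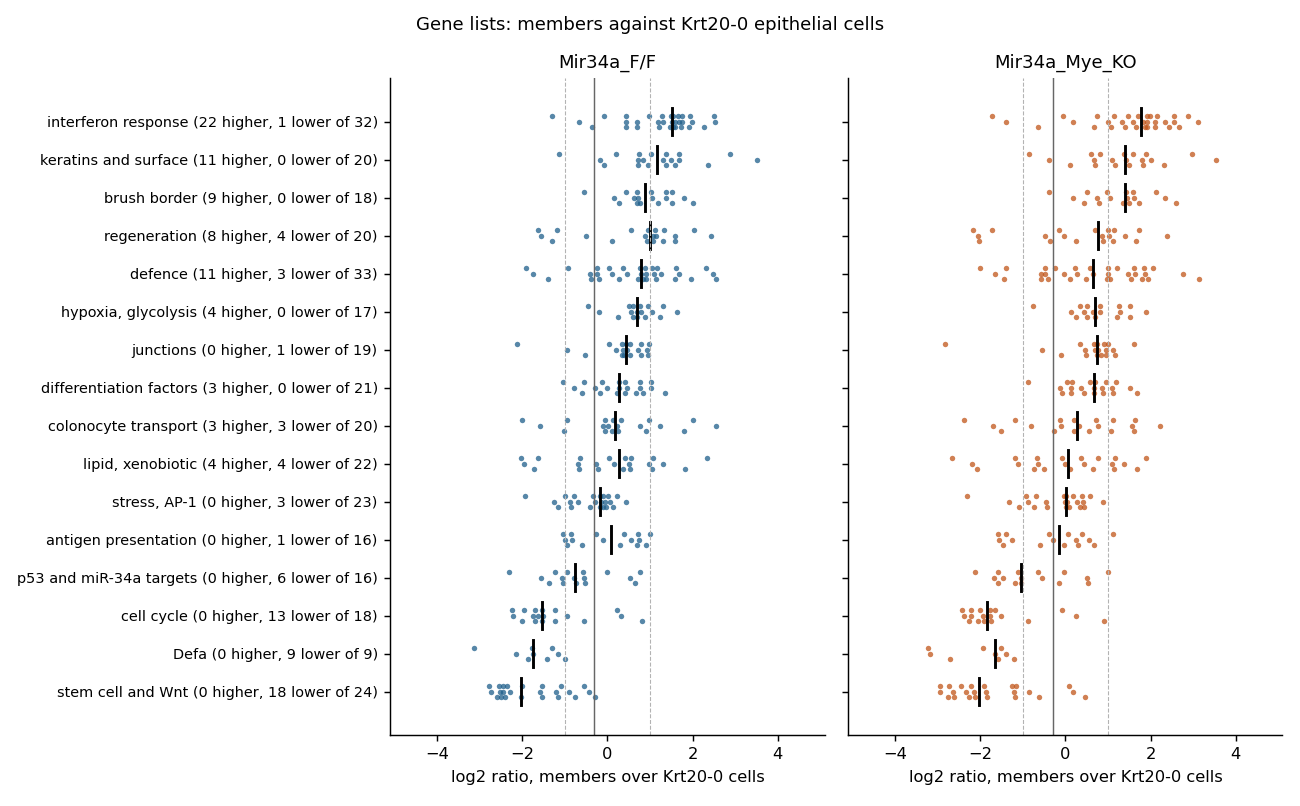
Log2 ratio of members over Krt20-0 epithelial cells (x axis) for the tested genes of 16 lists, with Mir34a_F/F on the left and Mir34a_Mye_KO on the right. Each dot is a gene, black bars are list medians, the grey solid line is the median of all genes (−0.32 and −0.30), dashed lines mark 2-fold, values beyond 5 are drawn at the edge, and the labels count genes past 2-fold in both libraries. The interferon list lies highest (1.51 and 1.77) and the stem cell and Wnt list lowest (−2.02 and −2.02).

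Transcription factors of epithelial differentiation differed little. Of 21 tested, 3 were higher and 0 lower, with medians of 0.28 and 0.67, or 0.35 and 0.35 against depth-weighted comparison cells. The higher ones were nuclear receptor genes Nr3c2, which encodes the mineralocorticoid receptor (1.35 and 1.69), and Pparg (1.03 and 1.18), and the intestinal homeobox gene Isx (1.01 and 1.12). Hnf4a and Hnf4g, whose products drive brush border and enterocyte genes, were at 0.40 and 0.86 and at 0.84 and 1.53. Klf4, a factor of post-mitotic epithelium, was at 0.42 and 0.68, at levels of 6.06 and 5.69 in members.

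Promoter sequences were searched for letters that such factors bind, because HNF4 factors are known to act at brush border genes. Promoters are the RefSeq windows from 250 bases before to 50 bases after a gene's start on GRCm38.p6, and 7105 of the 8944 genes tested had an entry. The HNF4-type word CAAAGTCC, on either strand, was in 22 of 299 promoters of genes higher in members (7.36%), in 9 of 829 of genes lower (1.09%), in 83 of 5977 of genes not called (1.39%) and in 1.63% of all 27025 genes. Of the brush border list it was in 1 of 16 (6.25%). Among the 22 genes were Muc13, the carbonic anhydrase gene Car9, the epithelial antigen Gpa33, the calcium channel gene Trpv6 and the steroid reductase gene Srd5a1. The 3 promoters shown here are those of the highest level in Mir34a_F/F members with the word before the start site: Muc13, the membrane protein gene Ms4a8a, and B3gnt3, an enzyme that extends mucin-type glycans. The Krt20 promoter is set beside them. Sequences run 5′ to 3′ on the gene's strand, and capitals mark the word in either orientation.

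Muc13: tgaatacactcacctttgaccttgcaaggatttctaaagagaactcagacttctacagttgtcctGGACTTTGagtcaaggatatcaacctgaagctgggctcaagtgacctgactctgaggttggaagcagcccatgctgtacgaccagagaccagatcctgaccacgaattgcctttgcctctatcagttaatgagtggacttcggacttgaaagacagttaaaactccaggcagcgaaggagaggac
Ms4a8a: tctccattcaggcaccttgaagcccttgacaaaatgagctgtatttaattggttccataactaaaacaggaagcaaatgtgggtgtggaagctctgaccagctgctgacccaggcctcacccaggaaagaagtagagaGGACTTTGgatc
B3gnt3: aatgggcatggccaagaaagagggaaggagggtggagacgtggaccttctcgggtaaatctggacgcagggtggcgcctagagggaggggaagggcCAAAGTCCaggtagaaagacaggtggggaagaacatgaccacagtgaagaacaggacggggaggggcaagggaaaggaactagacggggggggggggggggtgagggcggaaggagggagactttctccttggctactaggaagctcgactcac
Krt20: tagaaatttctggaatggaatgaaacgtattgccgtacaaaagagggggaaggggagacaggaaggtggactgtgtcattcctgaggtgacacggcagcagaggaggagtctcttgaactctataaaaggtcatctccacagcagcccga

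These windows lie at chr16:33794239-33794488 on the plus strand for Muc13, and on the minus strand at chr19:11081104-11081253 for Ms4a8a, chr8:71701801-71702050 for B3gnt3 and chr11:99438154-99438303 for Krt20. The word begins 185 bases before the start of Muc13, 12 before that of Ms4a8a and 154 before that of B3gnt3, and these letters are not in the stretch shown for Krt20. The stretches shown are the last 250 bases before the start for Muc13 and B3gnt3 and the last 150 for the others. The words of Muc13 and B3gnt3 begin beyond 150 bases, so a word that far from the start would not be seen in the Krt20 stretch. Muc13 has 2 starts in RefSeq, of which 1 is used here, and a start whose promoter holds the word was taken before others. Ms4a8a was at 6.39 in members against 2.60 in comparison cells of Mir34a_F/F and at 6.61 against 2.13 in Mir34a_Mye_KO. B3gnt3 was at 1.497 against 0.586 and at 1.04 against 0.394. A match describes letters and does not show that a factor was bound.

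Interferon response genes were the list with the largest share of higher genes among the 16 plotted. Of 32 tested, 22 were at least 2-fold higher in both libraries and 1 was lower, with medians of 1.51 and 1.77, and of 1.86 and 1.83 against depth-weighted comparison cells. Ifit1bl1, of the family of interferon-induced proteins with tetratricopeptide repeats that bind foreign RNA, had the highest level in members, with 5.26 against 0.925 in Mir34a_F/F and 6.62 against 0.761 in Mir34a_Mye_KO. It was found in 68.8% and 81.6% of members and in 8.74% and 15.3% of T cells. Isg15, a ubiquitin-like modifier, was at 1.91 against 0.598 and at 2.40 against 0.538, and was found in 48.6% and 57.1% of members against 18.3% and 27.3% of T cells. After thinning to 3000 UMIs, Isg15 was found in 27.0% and 31.6% of members against 14.3% and 12.96% of T cells, and Ifit1bl1 in 49.9% and 57.8% against 6.79% and 6.12%. Other higher genes were the RNA sensor Ifih1 (1.47 and 1.40), the oligoadenylate synthetase gene Oas1a (1.75 and 2.55), the nucleic acid sensor Zbp1 (1.52 and 1.59), the regulator Irf7 (1.31 and 1.87) and the GTPase gene Gbp2 (1.95 and 1.71).

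The list was not uniform. Irf9, a transcription factor that carries the interferon signal, was at −0.09 and 0.18, near the level of comparison cells, and the antiviral membrane protein gene Bst2 was at −0.37 and −0.63. Cxcl10, an interferon-induced chemokine, was lower in members (−1.31 and −1.40). With the rule applied anew to cells thinned to 3000 UMIs, Cxcl10 was at 0.31 in Mir34a_Mye_KO. All 5 tested Ifit genes on chr19:34550694-34650009 were higher. Of these, Ifit3 and Ifit3b passed the level filter through the members, with levels below 0.1 in comparison cells of both libraries. Genes of antigen presentation, many of which interferon also induces, had medians of 0.09 and −0.16, but of 0.33 and 0.64 against depth-weighted comparison cells. In that list 0 of 16 were higher and H2-Aa, of MHC class II, was lower (−1.05 and −1.57), but against depth-weighted comparison cells H2-Aa was at −0.10 and −0.01.

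The interferon-response word GAAANNGAAA, on either strand, was in 17 of the 26 promoters of the list with an entry (65.4%) and in 3.99% of all 27025. Among the 299 genes higher in members with an entry it was in 10.4%, and in 6.74% of the 282 that remain without the interferon list. Within the list, 12 of 16 tested genes with the word were higher and 1, Cxcl10, was lower, while 5 of 8 without it were higher, so the word alone did not separate them. The 3 windows shown are those of Ifit1bl1 and Isg15, described above, and of Ifit1, with capitals for the word in either orientation.

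Ifit1bl1: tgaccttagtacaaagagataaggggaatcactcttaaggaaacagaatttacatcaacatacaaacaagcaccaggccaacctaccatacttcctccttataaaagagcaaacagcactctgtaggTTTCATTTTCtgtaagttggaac
Ifit1: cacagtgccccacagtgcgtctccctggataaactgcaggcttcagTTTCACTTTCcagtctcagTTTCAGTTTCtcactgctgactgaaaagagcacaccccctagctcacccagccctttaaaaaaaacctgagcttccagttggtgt
Isg15: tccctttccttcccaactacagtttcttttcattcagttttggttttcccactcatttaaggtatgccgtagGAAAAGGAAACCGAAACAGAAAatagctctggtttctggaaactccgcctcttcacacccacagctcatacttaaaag

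They lie at chr19:34599428-34599577 on the minus strand for Ifit1bl1, chr19:34640739-34640888 on the plus strand for Ifit1 and chr4:156200819-156200968 on the minus strand for Isg15 (GRCm38.p6). The last 150 bases before the start are shown. A start whose promoter holds the word was taken before others, and the start used for Ifit1bl1 is 1 of 2 in RefSeq. Ifit1bl1 has 1 match that begins 23 bases before this start, Ifit1 has 2, at 104 and 85 bases, and Isg15 has 3 that overlap, from 78 to 66 bases before it. Ifit1 itself was at 1.003 against 0.174 and at 0.961 against 0.131.

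Genes of mucosal defence were higher in part. Of 33 tested, 11 were higher and 3 lower, with medians of 0.78 and 0.66. Saa1, which carries retinol and is induced by bacteria, was at 42.9 in members against 7.69 in comparison cells of Mir34a_F/F and at 35.8 against 5.26 in Mir34a_Mye_KO. Its neighbour Saa2 had log2 ratios of 2.31 and 3.14. Duox2 and its maturation factor Duoxa2, which make hydrogen peroxide at the apical membrane, had 1.602 and 1.84, and 1.59 and 1.80, respectively. The nitric oxide synthase gene Nos2 had 1.10 and 2.07, and Dmbt1, a secreted scavenger receptor that binds bacteria, was at 45.1 against 11.6 and 36.4 against 10.0. On the other side, lipocalin 2 (Lcn2), a siderophore-binding protein, was lower (−1.91 and −2.01), as were the lysozyme gene Lyz1 (−1.76 and −1.64) and the chemokine gene Ccl6 (−1.40 and −1.39). Lyz1 is also on the list of Paneth and alpha-defensin genes, of which all 9 tested were lower in both libraries, with medians of −1.76 and −1.64.

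Genes of hypoxia and glycolysis had medians of 0.70 and 0.69, with 4 of 17 higher and 0 lower. Hexokinase 2 (Hk2) was at 10.3 against 4.21 and at 9.64 against 2.60, and the hypoxia targets Car9 (1.63 and 1.51), Egln3 (1.24 and 1.52) and Ero1l (1.03 and 1.201) were the others. In the EGF and Notch list, the EGF receptor (Egfr) was at 3.52 against 1.32 and at 4.01 against 1.13, and its ligand amphiregulin (Areg) had ratios of 1.07 and 1.08. Notch1 and the Notch-modifying enzyme gene Lfng were lower (−1.88 and −2.38, and −1.61 and −2.84). That list had 2 of 9 genes higher and 2 lower.

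In the list of epithelial regeneration and squamous genes, 8 of 20 were higher and 4 lower, with medians of 1.01 and 0.77. Ly6a, known as Sca-1 and high in repairing epithelium, was at 21.8 against 5.29 and at 13.1 against 3.99. The laminin chain gene Lamb3 had log2 ratios of 1.14 and 1.13, and the annexin gene Anxa1 had 1.30 and 1.40. Krt17, a keratin of stressed and basal epithelium, was lower (−1.62 and −2.06). Vim, Zeb1 and Zeb2, genes of mesenchymal and blood cells, were lower too, but against depth-weighted comparison cells Zeb1 was at −0.47 and 0.02 and Zeb2 at 0.24 and −0.22.

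Genes of stem cells and Wnt signalling had the lowest medians of the 16 lists plotted. Of 24 tested, 18 were at least 2-fold lower in both libraries and 0 were higher, with medians of −2.02 and −2.02, and of −1.94 and −2.01 against depth-weighted comparison cells. Lgr5, itself a Wnt target, was set to 0 in both groups by the rule, which is a stricter condition in the deeper members. The part of the rule in the lower stem cell and Wnt genes was not tested. Prox1, a transcription factor that Wnt signalling switches on in colon tumors, was at 0.260 against 1.78 in Mir34a_F/F and at 0.270 against 1.68 in Mir34a_Mye_KO. Axin2 was at 0.332 against 1.82 and at 0.285 against 1.57. Thinned to 3000 UMIs, 7.85% and 7.68% of members had a UMI of Axin2, against 32.8% and 39.1% of comparison cells and 13.4% and 9.37% of T cells. These members and comparison cells were chosen before thinning, and 1165 and 1338 comparison cells of fewer than 3000 UMIs were left out. The level of Axin2 in T cells was 0.513 and 0.368. The part of free mRNA in the level of members was not tested. Nkd1 and Notum, inhibitors that the pathway induces against itself, had ratios of −2.52 and −2.94 and of −2.56 and −2.74, and the Wnt effector Lef1 had −2.73 and −2.76. Ephb2 and Ephb3, receptors of the crypt base, were near 0 (−0.29 and 0.46, and −0.44 and 0.17). Cd44 was at −0.91 and −1.16 and Tcf4 at −0.75 and −0.63.

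The other genes with the smallest ratios were the Wnt antagonist gene Dkk2 (−2.70 and −2.61), the growth factor gene Ptn (−2.56 and −2.86), the cell adhesion gene Mdga2 (−2.85 and −2.54), the centrosomal gene Cep112 (−2.90 and −2.496), the proteoglycan gene Spock2 (−2.49 and −2.67) and Mt3, a metallothionein (−2.47 and −2.99). Mt3 was at 1.09 against 6.07 and at 0.659 against 5.22. The TCF-type word CTTTGAT was in 2 of 19 promoters of the stem cell and Wnt list (10.5%), in 5.07% of genes lower in members, in 1.67% of those higher, in 2.76% of those tested and not called, and in 4.29% of all.

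Cell cycle genes were lower, with 13 of 18 past 2-fold in both libraries and medians of −1.54 and −1.85. Against depth-weighted comparison cells the medians were −1.11 and −0.90. Mki67, a marker of dividing cells, was at 0.193 against 0.749 and at 0.183 against 0.699. It had UMIs in 15.8% and 20.1% of members, and after thinning to 3000 UMIs in 5.97% and 4.61% of members and 12.2% and 12.4% of comparison cells. Top2a, another gene of dividing cells, was set to 0 in both groups by the rule. In the deeper members 0 UMIs is a stricter condition than in comparison cells, and the cells were chosen before thinning. The part of the rule in the lower cell cycle genes was not tested. The cell cycle inhibitors Cdkn1a and Cdkn2b stayed below 2-fold (0.32 and 0.25, and 0.81 and 0.90).

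In the list of p53 and miR-34a target genes, 0 of 16 were higher and 6 were lower, with medians of −0.76 and −1.04. Against depth-weighted comparison cells the medians of this list were −0.56 and −0.66. The lower ones were Trp53, which encodes p53 (−1.23 and −1.47), its pro-apoptotic target Bbc3 (−1.57 and −1.11), the survival gene Bcl2 (−2.32 and −2.13), the cell cycle kinase genes Cdk4 and Cdk6, and Notch2. Genes of stress and the AP-1 factors were near 0, with 3 of 23 lower, medians of −0.18 and 0.01, and Fos and Jun at 0.12 and 0.09 and at −0.06 and 0.42. Of 8 genes of the BMP response, Bmp2, a ligand of the surface epithelium, was higher (1.15 and 1.32), and Id2 and Id3 were lower. Of 22 genes of lipid and xenobiotic handling, 4 were higher, led by the sulfotransferase gene Sult1b1 (2.35 and 1.90), and 4 were lower.

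Markers of secretory cells rested in part on single cells. Goblet cell genes had medians of −0.03 and 0.47. Muc2, the main secreted mucin, was at 3.98 against 3.99 in Mir34a_F/F and at 7.17 against 4.38 in Mir34a_Mye_KO. At least 3 Muc2 UMIs were held by 51 and 59 members, and 1 member of each library held 387 and 398. After thinning, the share of cells with a Muc2 UMI was lower in members (16.8% and 16.6%) than in comparison cells (22.7% and 29.4%) and T cells (18.6% and 22.1%). The tuft cell genes tested, Avil and Alox5ap, were both lower (−1.30 and −1.64, and −1.29 and −1.81), but Alox5ap, which blood cells also express, was at 0.02 and 0.19 against depth-weighted comparison cells.

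Markers of immune and stromal cells were at lower levels in members than in comparison cells in both libraries. The summed level of 10 B and plasma cell genes was 19.3 against 37.1 in Mir34a_F/F and 44.7 against 158.9 in Mir34a_Mye_KO. For 9 macrophage genes it was 1.63 against 3.31 and 1.93 against 5.81, and for 7 mast cell and basophil genes 3.33 against 7.85 and 4.48 against 15.9. For 7 neutrophil genes it was 8.79 against 13.8 and 11.4 against 18.9, and for 8 T cell genes 0.410 against 0.704 and 0.345 against 0.842. For 9 genes of fibroblasts and endothelium it was 0.137 against 0.312 and 0.211 against 0.588. The summed level of 5 erythroid genes was higher in members, 0.783 against 0.715 and 3.49 against 0.205, and in Mir34a_Mye_KO 1 member held 1441 of the 1456 UMIs of Hba-a1. In these lists 0 genes were at 0 in members. Against depth-weighted comparison cells the median ratio of the B and plasma cell genes was −0.01 and −0.08 and that of the macrophage genes −0.02 and −0.12, while it was −0.23 and 0.26 for neutrophil genes and −0.29 and 0.28 for mast cell and basophil genes. In the T cell list and in that of fibroblasts and endothelium 1 gene each was tested, at −0.05 and −0.20 and at −0.98 and 0.26. Ribosomal protein genes were lower in members either way, with 90 of 91 below 0 in both libraries and medians of −0.66 and −1.09, and of −0.96 and −1.11 against depth-weighted cells. The part of free mRNA in the lists above was not tested.

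Between the libraries, few genes differed 2-fold in members with the rule as given. Of 8106 genes tested, 44 (0.543%) were at least 2-fold higher in members of Mir34a_Mye_KO and 40 (0.493%) at least 2-fold lower, with a median log2 ratio of −0.08. Of these, 52.4% were higher, against 38.8% (50 higher and 79 lower) with UMIs summed over members and 36.0% (167 higher and 297 lower) after thinning to 3000 UMIs, which also left 398 and 226 members. The share went the other way with mt- genes under 10%, to 61.8% (428 higher and 264 lower, 408 and 95 members). With libraries matched in depth it was 59.4% (123 higher and 84 lower). The count and its split thus depend on the setting. This is a comparison of 2 libraries and not of genotypes, since there was no replicate.

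Of the list of regeneration and squamous genes, 4 of 20 (Krt14, Krt17, Gsdmc2 and Gsdmc4) were at least 2-fold lower in members of Mir34a_Mye_KO, with a median of −0.39. For other lists the median library ratio in members was −0.11 for brush border genes, −0.20 for keratins and surface proteins, −0.05 for stem cell and Wnt genes, −0.16 for defence genes and 0.21 for interferon genes, and 0 genes of the first 4 lists passed 2-fold. Clca4b had nearly the same level in both (24.4 and 24.3), while Lypd8 was lower in Mir34a_Mye_KO (102 and 70.3). In the interferon list, Ifit2 and Rsad2 were higher in Mir34a_Mye_KO. Ifit2 was at 0.348 and 0.887 (log2 ratio 1.35, 95% interval 1.13 to 1.57), found in 14.6% and 22.6% of members, and Rsad2 at 0.268 and 0.588 (1.14, 0.87 to 1.40), found in 11.9% and 15.8%. With the rule applied anew to cells thinned to 3000 UMIs Ifit2 was below 2-fold (0.87), and with a pseudocount of 0.1 Rsad2 was (0.90). Isg15 had 0.33.

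Most of the genes named as higher in Mir34a_Mye_KO members were also higher in the comparison cells of that library. All 7 immunoglobulin genes tested were higher in members (median 1.45), with 2.33 in comparison cells, and 1 member of Mir34a_F/F held 3514 Igkc UMIs. Jchain, which links secreted antibodies, was at 1.17 and 3.19. Lars2, a mitochondrial tRNA synthetase gene, was at 5.53 and 15.6 in members and had a ratio of 1.15 in comparison cells. The kinase gene Camk1d, at 16.5 and 38.1, and the scaffold gene Gphn, at 2.64 and 5.78, had ratios of 0.90 and 0.67 there. Il31ra, a cytokine receptor subunit, and the antisense RNA Gm15564 had ratios of 1.47 and 1.61 in members and of 0.84 and 1.81 in comparison cells. For Gm15564 strand was not checked, so its UMIs cannot be told from those of an overlapping gene. Tex14 and Styx were higher by 0.99 each in members, just under 2-fold, and were at −0.54 and −0.12 in comparison cells.

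Among the genes named as lower in Mir34a_Mye_KO members, Gsdmc2, a gasdermin gene of the upper crypt, had the smallest ratio. It was at 0.850 in members of Mir34a_F/F and 0.219 in those of Mir34a_Mye_KO (log2 ratio −1.95, −2.19 to −1.72), against 0.284 and 0.244 in comparison cells (−0.22). Its neighbour Gsdmc4, similar in sequence, was at 0.906 and 0.302 in members and at 0.304 and 0.254 in comparison cells. Both were thus higher in members than in comparison cells in Mir34a_F/F (1.58 and 1.58) and near them in Mir34a_Mye_KO (−0.16 and 0.25, or 0.27 and 0.29 against depth-weighted comparison cells). Khdc1a, a gene of the KH domain family, showed the same order, with 0.931 and 0.313 in members and 0.428 and 0.395 in comparison cells. Gsdmc2 and Khdc1a passed the filters for named genes through Mir34a_F/F, where they were high. Gsdmc2 was found in 28.2% of members of Mir34a_F/F and 16.0% of those of Mir34a_Mye_KO, and Khdc1a in 32.0% and 23.3%. Krt14, a basal keratin, was at 0.598 and 0.176. The difference between members and comparison cells in these library ratios was not tested.

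The other genes named as lower were of mixed kinds. Rpl35, Rpl39 and Rpl10, which encode ribosomal proteins, had ratios of −1.09, −1.09 and −0.998, the small nucleolar protein gene Nop10 −1.12, the host transcript Snhg9 −1.22, the small membrane protein gene Smim6 −1.14, and Gm41609 and Gm11808 −1.33 and −1.24. The median over 90 ribosomal protein genes was −0.54 in members and −0.10 in comparison cells. The median mt- content of members was 11.2% in Mir34a_F/F and 16.9% in Mir34a_Mye_KO, and its part in these ratios was not tested. Relative to UMIs without mt-, immunoglobulin and ribosomal protein genes, 60 genes were higher and 39 lower.

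**Figure D5:**
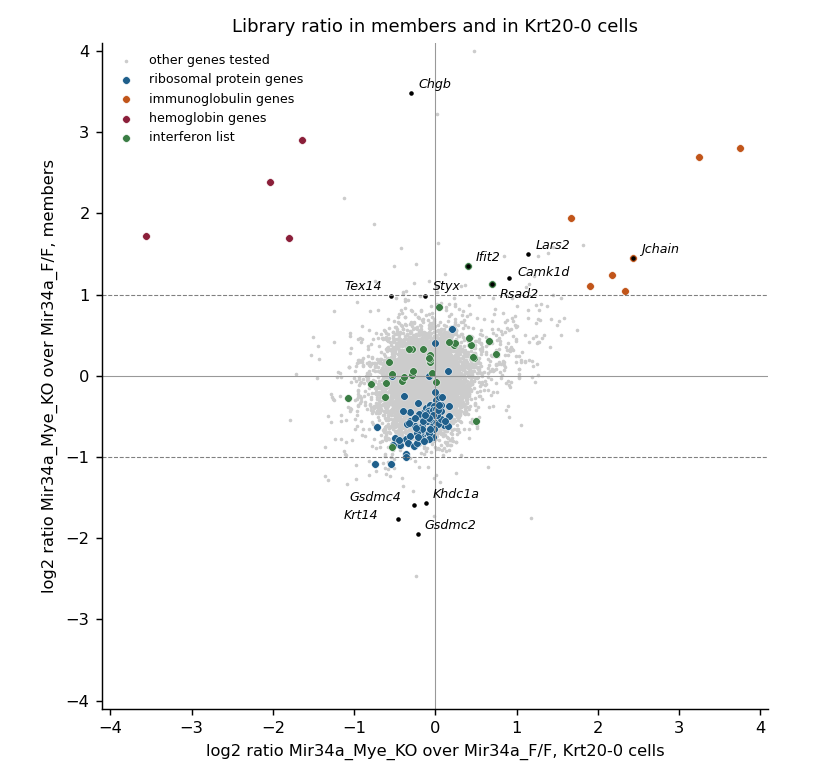
Log2 ratio of Mir34a_Mye_KO over Mir34a_F/F in Krt20-0 epithelial cells (x axis) and in members (y axis) for the genes tested, with ribosomal protein genes in blue, immunoglobulin genes in orange, hemoglobin genes in dark red and the interferon list in green. Dashed lines mark 2-fold in members, and values beyond 4 are drawn at the edge. Gsdmc2 (−1.95 in members, −0.22 in comparison cells) lies low near the middle, and Jchain and other immunoglobulin genes lie to the upper right.

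Hormone and hemoglobin genes differed between the libraries through few cells. At least 50 UMIs of enteroendocrine genes were held by 1 member of Mir34a_F/F and 7 of Mir34a_Mye_KO, and at least 50 of hemoglobin genes by 2 and 1. Without these cells, 30 genes in place of 44 were at least 2-fold higher in Mir34a_Mye_KO and 40 were lower.

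Members differed among themselves. They were split in each library into 3 equal parts by their Krt20 UMIs per 10000. Clca4a was at 0.815, 2.36 and 6.73 from the lowest to the highest part in Mir34a_F/F and at 0.669, 1.90 and 4.63 in Mir34a_Mye_KO. Clca4b was at 15.4, 26.7 and 31.0, and at 18.4, 22.9 and 31.5. Both genes were higher in the parts richer in Krt20, which were also less deep. In members thinned to the same depth the Spearman correlation of Krt20 with Clca4b was 0.16 and 0.17. The level of Krt20, which the split itself set, was 3.37, 6.65 and 12.8 and at 2.52, 5.18 and 11.3. Car4 was found in only 41 and 20 members, and 1 member of each library held 37 of its 238 and 30 of its 118 UMIs. Its level was 0.117, 0.318 and 0.410 and 0.011, 0.096 and 0.378, higher in the parts richer in Krt20. Egfr (2.84, 3.37 and 4.35, and 3.06, 3.83 and 5.14) and Duox2 (4.43, 6.56 and 7.89, and 4.76, 6.44 and 7.79) had the same order. Saa1 (29.6, 51.9 and 47.3, and 28.9, 36.9 and 41.6) and Ifit1bl1 (3.03, 6.58 and 6.18, and 5.15, 6.56 and 8.17) were lowest in the first part but did not keep that order above it in Mir34a_F/F. Slc26a3 did not increase (0.078, 0.039 and 0.038, and 0.039, 0.044 and 0.041). The parts also differed in depth, with medians of 14413, 8344.5 and 7092 UMIs and of 17742.5, 13397 and 12609. The part of depth in these orders was not tested.

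Across members thinned to the same depth (905 and 586 cells), Spearman correlations describe which genes varied together. They carry no p-value, because cells of 1 library share its free mRNA. Saa1 correlated with Clca4b (0.58 in Mir34a_F/F and 0.53 in Mir34a_Mye_KO) and with Lypd8 (0.52 and 0.62). The summed defence list correlated with the summed list of keratins and surface proteins (0.72 and 0.74). Ifit1bl1 correlated less with Clca4b (0.31 and 0.31) and with Saa1 (0.31 and 0.20), and the interferon list correlated with antigen presentation (0.47 and 0.42). The stem cell and Wnt list was lower where Lypd8 was higher (−0.33 and −0.35). Krt20 itself correlated weakly with these genes (Clca4b 0.16 and 0.17, Lypd8 0.02 and 0.08), and at such counts a weak value carries little.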

How the data were processed

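Tumor cells were profiled by droplet-based single-cell RNA sequencing of mRNA 3′ ends. Per the labels and the study's methods, the authors aligned reads with Cell Ranger 7.2.0 to mm10, removed doublets with Scrublet and normalised each cell. The deposited values are the natural log of 1 plus UMIs per 10000 of a cell. UMIs were recovered from these values as expm1 divided by the cell's smallest value above 0 and came out whole in 100% of cases (largest deviation 1.49e-10). Cell types are those of the authors' deposited annotation. Levels are means over cells of UMIs per 10000. Genes with a mean level of at least 0.1 were tested, and a gene was counted when it differed at least 2-fold, in both libraries for members against comparison cells. The 95% intervals of ratios use the effective number of UMIs behind each mean rather than the summed UMIs that were planned, because the latter were too narrow in simulated data. In simulated counts for 8944 genes in members against Krt20-0 cells, intervals held the true ratio in 95.1% and 94.9% of genes, and 99 of 100 genes set to a log2 ratio of 1.5 were called. These counts were drawn with counting error alone and the same level in all cells of a group. They therefore cannot show how intervals or calls hold where levels vary between cells.

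Members, gene lists and alternatives were chosen with earlier results of these data known. Named genes are those of 28 lists, the 15 largest and 10 smallest ratios of members over comparison cells and the 10 largest and smallest library ratios in members (mean level of at least 0.5, and for the latter a UMI in at least 25% of members of a library). Genes named for their promoters or family were chosen after their values were seen. Positions are those of GENCODE on GRCm38 and promoters those of RefSeq on GRCm38.p6, both the mm10 build. Python 3.11.15, numpy 2.4.6, scipy 1.17.1, pandas 2.3.3 and matplotlib 3.10.9 were used. Some genes of the lists are not reported here by name.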

Additional observations from a re-analysis of the deposited data

Results flagged for a closer look

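The hemoglobin genes differed in opposite directions in members and in Krt20-0 epithelial cells, as log2 ratios of Mir34a_Mye_KO over Mir34a_F/F. Hbb-bt was at 1.72 in members and −3.57 in comparison cells, Hbb-bs at 1.70 and −1.80, Hba-a1 at 2.90 and −1.64 and Hba-a2 at 2.38 and −2.03. The differences were not tested. In Mir34a_Mye_KO, 1 member held 1441 of the 1456 Hba-a1 UMIs of all members.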

How the results depend on the processing

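No paired analysis was possible because there was 1 library per genotype. The limits are the missing replicate, the greater depth of members than of comparison cells, free mRNA, and annotated epithelial cells of high mt- content.

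Shares of members, in Mir34a_F/F and Mir34a_Mye_KO, were 5.011% and 4.13% with at least 5 Krt20 UMIs, 4.71% and 3.02% after thinning to 3000 UMIs, 10.5% and 6.89% with at least 3 Krt20 UMIs per 10000, 3.51% and 0.963% with mt- genes under 10%, 9.90% and 9.74% of cells with mt- genes under 25%, and 6.14% and 3.89% with at least 1 Epcam UMI, 0 Ptprc UMIs and immunoglobulin genes under 1%. With no limit on mt- genes, chosen after seeing the data, they were 8.71% and 10.1%.

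For members against Krt20-0 cells, 250 genes were higher and 176 lower at a mean level of at least 0.5, 265 and 363 with a pseudocount of 0.1, and 2031 lower with no filter and a pseudocount of 0.01. The share of higher genes among those called was 27.7%, and 58.7% at a mean level of at least 0.5. At that level 3306 genes were tested, in place of 8944. For the library ratio in members, higher and lower genes numbered 167 and 297 after thinning, 428 and 264 with mt- genes under 10% (408 and 95 members), 13 and 10 at a mean level of at least 0.5, 204 and 149 with no filter, 21 and 12 with a pseudocount of 0.1, and 123 and 84 with libraries matched in depth, and 79 were lower with summed UMIs. The share of higher genes was 52.4%, but 38.8% with summed UMIs and 36.0% after thinning. It was 61.8% with mt- genes under 10% and 59.4% with libraries matched in depth. The causes were not tested.

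Of the values of single genes named in the text that were past 2-fold, 13 turned their sign under 1 or more alternatives, and values nearer 0 were not counted. Against depth-weighted cells Alox5ap was at 0.015 and 0.19, Zeb1 at 0.024 in Mir34a_Mye_KO and Zeb2 at 0.24 in Mir34a_F/F. In Mir34a_Mye_KO, Aqp8 was at −1.98 and Car4 at −0.61 with mt- genes under 10%, and Cxcl10 at 0.31 after thinning. Without members of 50 or more hemoglobin or enteroendocrine UMIs, a setting chosen after seeing the data, Chgb was at −0.81 and −1.54, and the library ratios of Hba-a1, Hba-a2, Hbb-bs and Hbb-bt were −0.54, −2.46, −1.25 and −0.87. With the Epcam filter these 4 were at −2.89, −5.63, −3.01 and −3.31. After thinning Hba-a1, Hbb-bs and Hbb-bt were at −1.18, −2.35 and −0.77, and with mt- genes under 10% Hba-a2, Hbb-bs and Hbb-bt at −2.44, −2.40 and −0.65.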
